A study of Homo sapiens with 4 samples.

Results

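Replication-dependent histone genes were examined in 4 RNA-seq libraries of irradiated and unirradiated pancreatic cancer cells. The genes were the rows of the expression table whose name begins with HIST1H, HIST2H, HIST3H or HIST4H and whose counts summed to at least 20 over the 4 libraries. These were 71 of 87 rows with such a name, in a table with 58174 rows that name a gene, of which 20017 reached 20 counts. The 71 comprised 5 H1, 17 H2A, 21 H2B, 15 H3 and 13 H4 rows, and 7 of them are annotated as pseudogenes. Of the 16 rows below 20 counts, 8 had no count in any library.

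SW1990 and PANC-1 are established human pancreatic cancer cell lines. SW1990 was grown in 1640 medium and PANC-1 in DMEM, each with serum, and each line was sequenced unirradiated and after X-rays at a dose of 10 Gy. Each of the 4 groups had 1 library, so the spread between cultures within a group is unknown. The time between radiation and RNA extraction is not given in the sources used here. The epithelial keratins KRT8 and KRT18 had FPKM values (a level scaled to transcript length and sequencing depth) of at least 785.7 and 468.3 in every library. Of 9 markers of other cell types, CD3E, COL1A2 and INS had 0 counts in every library and PTPRC, PECAM1 and LUM at most 2. COL1A1, a collagen gene, was the most abundant, with 103 and 165 counts in unirradiated and irradiated SW1990 and 965 and 1315 in PANC-1. VWF had 14 and 50 counts in SW1990 and 2 and 4 in PANC-1, and PRSS1 had 12 and 8 and then 0 and 0. The part of other cells in the histone values was not tested. EPCAM and CDH1 were at 217 and 140 FPKM in unirradiated SW1990 but at 2.28 and 0.673 FPKM in unirradiated PANC-1.

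Each nucleosome holds an octamer of the core histones H2A, H2B, H3 and H4, and the linker histone H1 binds the DNA between nucleosomes. Replication-dependent histone genes lie in clusters, are transcribed mainly in S phase and yield mRNAs that end in a conserved stem-loop in place of a poly(A) tail. The stem-loop binding protein SLBP and the U7 small nuclear ribonucleoprotein direct cleavage behind it, and the mRNAs are degraded when DNA synthesis stops.

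The 3′ stem-loop was read from the GENCODE 29 transcripts, because it is the element these mRNAs share. The letters searched on the transcript strand were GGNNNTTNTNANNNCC, written with T for U. The sequences below are given 5′ to 3′ with 5 bases on each side, and capitals mark the stem-loop.
HIST1H2AC: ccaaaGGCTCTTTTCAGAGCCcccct
HIST1H2BC: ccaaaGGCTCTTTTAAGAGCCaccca
HIST1H3E: ccaaaGGCTCTTCTCAGAGCCaacca
HIST1H4E: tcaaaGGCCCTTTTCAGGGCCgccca
HIST2H4A: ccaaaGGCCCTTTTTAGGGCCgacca
HIST1H2AG: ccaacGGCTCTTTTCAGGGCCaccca
The stem-loop of HIST1H4E lies at chr6:26205001-26205016 on the plus strand of GRCh38 and that of HIST2H4A at chr1:149833032-149833047 on the plus strand. A stem-loop was found in 32 of 70 members with a transcript in GENCODE 29, and in 31 of these the 6 bases of one arm pair with all 6 of the other. The exception was HIST1H2AG, shown last. Of all 58676 annotated genes, 3.72% hold the letters and 0.141% hold them with a fully pairing stem. The form of HIST1H2AC was carried by 19 members of the H2A, H2B and H3 classes and the form of HIST1H4E by 5 H4 members. In the other 38 members the annotated model ends before the element or lacks it. In 23 members a transcript runs over 100 bases past the stem-loop.

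In the unirradiated libraries H2A, H2B and H4 were the classes with the highest levels per length. The order of classes by FPKM depends on the annotated models, which span 312 bases for HIST1H4K and 1656 for HIST2H3C, for example. Summed FPKM in unirradiated SW1990 was 4301 for H2B, 4183 for H4, 3971 for H2A, 2425 for H3 and 775 for H1. By summed counts H4, with 39593, was below H2A, with 45722, in that library. In unirradiated PANC-1 it was 3054 for H2B, 2879 for H2A, 2326 for H4, 1713 for H3 and 769 for H1. After radiation, summed FPKM in SW1990 was 1659.95 for H2A, 1597 for H2B, 1898 for H4, 1071 for H3 and 291 for H1. In irradiated PANC-1 it was 2153 for H2A, 1801 for H2B, 2044 for H4, 1505 for H3 and 634 for H1. Every class was lower in the irradiated library of each line, and in each class the gap was wider in SW1990.

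**Figure D1:**
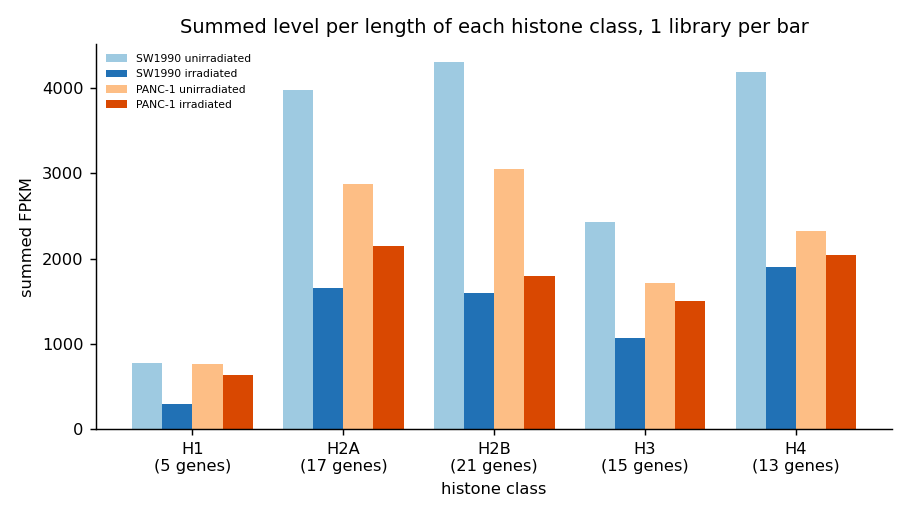
Summed FPKM (y axis) of the histone genes of each class (x axis) in the 4 libraries, 1 bar per library. In every class the irradiated bar is below the unirradiated bar of the same line, with H2B at 4301 against 1597 in SW1990 and 3054 against 1801 in PANC-1.

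To compare histone mRNA with and without radiation, the irradiated library was set against the unirradiated library of each line, with counts scaled by TMM over all rows that name a gene. The members took 179818 of 17851815 gene counts in unirradiated and 78083 of 18305682 in irradiated SW1990. They took 167517 of 23323266 in unirradiated and 107559 of 20026595 in irradiated PANC-1. The log2 fold change of the summed counts was -1.18 (95% interval -1.19 to -1.17) in SW1990 and -0.50 (-0.52 to -0.49) in PANC-1. These are exact Clopper-Pearson intervals, which cover counting error only. RNA from bulk cells cannot separate fewer cells in S phase from less histone mRNA per cell.

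In SW1990, 46 of 66 members with a fold change were lower by over 2-fold and 1 was higher, while 5.63% of all genes were lower by that much and 6.97% were higher. In PANC-1, 10 of 68 were lower by over 2-fold and 2 were higher, against 5.58% and 8.02% of all genes. Without pseudogenes and rows that overlap another, 4 of 47 members were lower by over 2-fold in PANC-1. A fold change was formed where at least 1 library of the line had more than 3 counts. The members' median log2 fold change was -1.17 in SW1990 and -0.58 in PANC-1, and the median of all genes was 0.03 and 0.00. A 95% counting interval lay below 0 for 58 members in SW1990 and 53 in PANC-1, against 18.9% and 25.8% of all genes. With a fold change in both lines, 53 of 63 members were lower in both, against 25.1% of all genes, and 56 of the 63 had the lower fold change in SW1990, against 47.5%. In SW1990 64 of 66 members were lower at all, against 46% of all genes, and in PANC-1 59 of 68, against 49.7%. The difference in response between the lines has no residual degree of freedom in this design and was not tested.

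**Figure D2:**
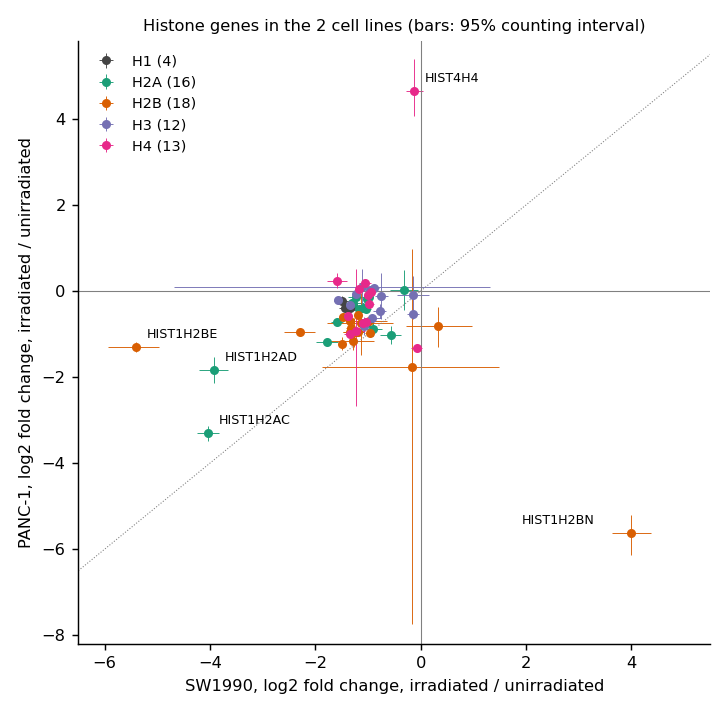
Log2 fold change of each histone gene (irradiated against unirradiated) in SW1990 (x axis) and PANC-1 (y axis), coloured by class, with 95% counting intervals as bars and the line of equal change dotted. Most genes lie left of -0.5 in SW1990 and close to or below 0 in PANC-1, and HIST1H2BN and HIST4H4 stand apart.

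Fitting the 4 libraries together, with cell line as a covariate, gives the only test of radiation, on 1 residual degree of freedom. That degree of freedom is the difference in response between the lines and not a spread between replicates. With edgeR's quasi-likelihood test, 0 of 71 members and 0 of 20017 genes (0%) passed an adjusted p of 0.05. At an unadjusted p under 0.05 there were 44 members, all lower after radiation, and 951 genes (4.75%). DESeq2's Wald test gave 27 members, all lower, and 297 genes (1.48%). On the 18180 genes kept by filterByExpr, DESeq2 gave 14 members and 39 genes. The smallest p of a member was that of HIST1H2AC, with a log2 fold change of -3.67 and a quasi-likelihood adjusted p of 0.339. In the DESeq2 fit the same gene had a log2 fold change of -3.66 ± 0.27 (SE) and an adjusted p of 2.68e-37.

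The linker histones H1 were lower in both lines, by more in SW1990. All 4 H1 genes with a fold change in SW1990 were lower by over 2-fold, with log2 fold changes from -1.50 to -1.28. The 5 in PANC-1 ranged from -0.41 to -0.08, where the -0.08 was that of a pseudogene row with 14 and 12 counts. Without it the 4 ranged from -0.41 to -0.22. None passed 2-fold in PANC-1, while 5.58% of all genes were lower by that much there and 5.63% in SW1990. HIST1H1B had 4557 and 1843 counts in unirradiated and irradiated SW1990 and 8066 and 5786 in PANC-1. Both irradiated libraries were the lower of their line, with log2 fold changes of -1.28 (-1.36 to -1.21) and -0.34 (-0.39 to -0.30). HIST1H1C had 2716 and 987 counts in SW1990 and 3091 and 2125 in PANC-1. HIST1H1E had 2854 and 1104 in SW1990 and 2550 and 1770 in PANC-1. No 50-base window of any H1 transcript occurs in another member.

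H2A, which pairs with H2B in the nucleosome, was lower in all 16 members with a fold change in SW1990 and in 15 of 17 in PANC-1. By over 2-fold, 12 were lower in SW1990 and 4 in PANC-1, against 5.63% and 5.58% of all genes. HIST1H2AG had 5493 and 2413 counts in SW1990 and 4636 and 3162 in PANC-1, with log2 fold changes of -1.17 (-1.24 to -1.10) and -0.42 (-0.48 to -0.35). HIST2H2AA3 and HIST2H2AA4 share 100% and 97.1% of their 50-base windows, so the split of reads between them is uncertain. Together they had 12977 and 6389 counts in SW1990 and 11005 and 8980 in PANC-1. The 95% interval of the log2 fold change of the sum ran from -1.04 to -0.96 in SW1990 and from -0.20 to -0.12 in PANC-1. HIST1H2APS5, a pseudogene, had 0 counts in both SW1990 libraries and 9 and 20 in PANC-1, a log2 fold change of 1.24 (0.09 to 2.61).

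HIST1H2AC had the lowest log2 fold change by counts among the H2A genes of each line, but in SW1990 its interval overlapped that of HIST1H2AD, which was the lower by FPKM, at -3.99 against -3.92. HIST1H2AC had 3221 and 193 counts in unirradiated and irradiated SW1990 and 3378 and 310 in PANC-1. The 2 unirradiated libraries were close to each other, and both irradiated libraries were far below them. The log2 fold change was -4.04 (-4.26 to -3.83) in SW1990 and -3.31 (-3.48 to -3.14) in PANC-1. The gene model spans 14972 bases at chr6:26124145-26139116 on the plus strand, and its 3 annotated transcripts are 1462 to 1668 bases long.

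HIST1H2BC, its neighbour on the opposite strand, is the H2B gene with the second largest summed count. It had 7533 and 3148 counts in SW1990 and 6663 and 3114 in PANC-1, log2 fold changes of -1.24 (-1.30 to -1.18) and -0.96 (-1.02 to -0.90). These genes are read from opposite strands with 218 bases between their 5′ ends, and HIST1H2AC was the lower of them in both lines.

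H2B was lower in 17 of 19 members in SW1990 and in all 20 in PANC-1, where its median of -0.95 was the lowest of the 5 classes. By over 2-fold, 14 were lower in SW1990 and 5 in PANC-1, against 5.63% and 5.58% of all genes. Without pseudogenes these were 12 of 15 and 3 of 16. HIST1H2BK had 9187 and 3237 counts in SW1990 and 7505 and 4513 in PANC-1, with log2 fold changes of -1.48 (-1.54 to -1.43) and -0.60 (-0.65 to -0.55). HIST1H2BO had 7408 and 3189 in SW1990 and 4865 and 2999 in PANC-1. Both irradiated libraries were lower for each gene. HIST2H2BC, a pseudogene row, had 41 and 51 counts in SW1990 and 123 and 63 in PANC-1. The summed H2B counts of PANC-1 gave a log2 fold change of -0.89 (-0.91 to -0.86), and -0.82 (-0.84 to -0.80) without HIST1H2BN. In SW1990 they gave -1.27 (-1.29 to -1.25), and -1.34 (-1.36 to -1.32) without it.

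H3 and H4, which form the tetramer at the core of the nucleosome, were lower in all 14 and all 13 members of SW1990 by counts, and the counting interval lay below 0 for 11 of each. HIST1H3E, at -0.14 (-0.45 to 0.16) in SW1990 and -0.09 (-0.54 to 0.35) in PANC-1 by counts, was at 1.27 and 1.21 by FPKM, with an implied transcript length that varied 2.75-fold. It was chosen after its values were seen. In PANC-1, 10 of 13 H3 and 9 of 13 H4 members were lower, with medians of -0.20 and -0.31. By over 2-fold, 7 H3 and 9 H4 members were lower in SW1990, and 0 and 1 in PANC-1. Of all genes, 5.63% were lower by that much in SW1990 and 5.58% in PANC-1, so the PANC-1 counts were near the background. In PANC-1 1 H4 member, HIST4H4, was higher by over 2-fold. HIST1H3B had 5958 and 2515 counts in SW1990 and 6037 and 5240 in PANC-1, log2 fold changes of -1.22 (-1.29 to -1.16) and -0.07 (-0.12 to -0.02). HIST1H3H had 4398 and 1714 in SW1990 and 3739 and 2715 in PANC-1. HIST1H4D had 4690 and 2043 counts in SW1990 and 4034 and 3765 in PANC-1. Its log2 fold change was -1.18 (-1.25 to -1.10) in SW1990 and 0.04 (-0.03 to 0.10) in PANC-1, where the interval holds 0. HIST1H4E had 5344 and 2030 in SW1990 and 3939 and 2377 in PANC-1, and HIST1H4H had 3855 and 1897 and then 4245 and 3649.

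The share of each class in the members' counts shifted more in PANC-1 than in SW1990 for H2B. H2B held 28.6% (95% Wilson interval 28.4 to 28.8) of the members' counts in unirradiated and 26.9% (26.6 to 27.2) in irradiated SW1990. In PANC-1 it held 28.7% (28.5 to 28.9) and 22.0% (21.7 to 22.2). H3 held 17.3% (17.1 to 17.5) and 21.1% (20.9 to 21.4) in PANC-1. H1 held 9.05% (8.91 to 9.18) and 10.1% (9.87 to 10.2) there, but 6.49% (6.38 to 6.61) and 5.73% (5.57 to 5.89) in SW1990. The log2 fold changes of the summed counts by class in SW1990 ran from -1.36 for H1 to -1.04 for H4. By summed FPKM the lowest there was H2B, at -1.43, with H1 at -1.41. By median the highest was H3, at -1.02, with H4 at -1.06. In PANC-1 the summed counts ran from -0.89 for H2B to -0.21 for H3, and by summed FPKM H3 and H4 were both at -0.19. The counting intervals of the lowest and highest class by summed counts do not overlap in either line. Those of H2A and H2B and of H3 and H4 overlap in SW1990, and those of H1 and H4 in PANC-1. Without HIST1H2BN, the interval of H2B in SW1990 (-1.36 to -1.32) overlaps that of H1 (-1.41 to -1.31). The differences have no replicate check.

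Several H2A and H2B genes lie head to head, read from opposite strands with 218 to 330 bases between their 5′ ends. In 10 such pairs, a comparison added after the data were seen, the H2B gene had the lower fold change in 6 in SW1990 and in 7 in PANC-1. The median of H2B minus H2A was -0.13 in SW1990 and -0.22 in PANC-1, on the log2 scale. In HIST1H2AI and HIST1H2BL, for example, PANC-1 gave -0.42 and -0.95, and in HIST3H2A and HIST3H2BB it gave 0.02 and -0.96. The pairs in which H2A was the lower gene in both lines were those of HIST1H2AC, HIST1H2AD and HIST1H2AE. By their RefSeq starts HIST1H2AK and HIST1H2BN, whose models overlap, also lie head to head but were not among the 10. Their log2 fold changes were -0.57 and 3.98 in SW1990 and -1.03 and -5.63 in PANC-1.

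The promoters of 3 genes are shown because their motifs differ between the classes. RefSeq gave a window of 250 bases before to 50 after the start (GRCh38.p14) for 53 of 71 members. Each sequence below covers the 150 bases before the start, 5′ to 3′ on the strand of the gene, with motif matches in capitals.
HIST1H2BK: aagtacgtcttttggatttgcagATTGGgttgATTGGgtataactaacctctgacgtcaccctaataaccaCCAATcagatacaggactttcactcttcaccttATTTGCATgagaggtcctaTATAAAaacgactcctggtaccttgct
HIST1H2AC: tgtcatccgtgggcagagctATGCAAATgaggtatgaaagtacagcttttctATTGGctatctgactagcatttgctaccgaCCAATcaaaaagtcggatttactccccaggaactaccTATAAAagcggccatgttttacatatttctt
HIST1H4D: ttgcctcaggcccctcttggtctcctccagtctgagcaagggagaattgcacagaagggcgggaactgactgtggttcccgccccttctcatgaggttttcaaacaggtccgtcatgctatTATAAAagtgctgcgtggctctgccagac
They lie at chr6:27146859-27147008 on the minus strand, chr6:26124022-26124171 on the plus strand and chr6:26189113-26189262 on the minus strand. The TATA box was searched as TATAAA on the gene's strand, with its first base between -40 and -20 from the start. The CCAAT box (CCAAT or ATTGG) and the octamer (ATTTGCAT or ATGCAAAT), a binding sequence of OCT factors that is known from H2B promoters, were searched on both strands of the window. Matches of different motifs may overlap, and a match describes letters, not binding. TATAAA was found in 28 of 53 members and in 2.55% of all 27305 RefSeq promoters. CCAAT was found in 44 of 53 members and in 35.7% of all promoters, and the octamer in 24 of 53 members and in 1.80% of all. CCAAT occurred in all 4 H1, 13 H2A, 17 H2B and 8 H3 promoters but in 2 of 11 H4 promoters. The octamer occurred in 10 of 13 H2A and 13 of 17 H2B promoters, in 1 of 8 H3 and in none of the 4 H1 and 11 H4 promoters. Windows of head-to-head pairs overlap, so a site can count for both genes, and the 24 octamer matches are 16 distinct sites and the 123 CCAAT matches 86. The 1 H3 window, that of HIST1H3D, is the same window as that of HIST1H2AD.

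The members lie in 3 clusters on chromosome 6, 4 groups on chromosome 1 and 1 site on chromosome 12 (GRCh38). The first chromosome 6 cluster (chr6:26020490-26285638) holds 30 members, the second (chr6:27125897-27147515) 5 and the third (chr6:27807444-27893843) 16. The main chromosome 1 cluster (chr1:149782689-149887916) holds 12 of the 19 members on that chromosome. In SW1990 the log2 fold change of the summed counts was -1.26 (-1.28 to -1.25) on chromosome 6 and -0.96 (-0.99 to -0.94) on chromosome 1. In PANC-1 it was -0.55 (-0.57 to -0.54) on chromosome 6 and -0.36 (-0.38 to -0.33) on chromosome 1. By over 2-fold, 37 of 46 chromosome 6 members and 9 of 19 chromosome 1 members were lower in SW1990. In PANC-1 these were 6 of 49 and 4 of 18. Of all genes, 5.63% were lower by over 2-fold in SW1990 and 5.58% in PANC-1. The 4 chromosome 1 members in PANC-1 included pseudogene rows and HIST2H4B, a near-identical copy of HIST2H4A. The 9 in SW1990 also included pseudogene rows, 1 of them HIST2H3DP1 with 5 and 2 counts, and HIST2H3PS2 with 13 and 5 counts. The counting intervals of HIST2H3DP1 and HIST2H3PS2 held 0.

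Within chromosome 6 the order of the first and the third cluster in PANC-1 differed by class. The median log2 fold change in the first and the third cluster was -1.18 and -0.72 for H2A, -0.72 and -0.95 for H2B, -0.31 and -0.63 for H3 and -0.02 and -0.75 for H4. For H1 it was -0.31 in the first, and the 1 gene of the third was at -0.34. Without a pseudogene row, at -0.08 with 14 and 12 counts, the H1 genes of the first were at -0.41, -0.39 and -0.22. Their middle value, -0.39, was below that of the third, so the order for H1 rested on the pseudogene. The 3 H4 members of the third cluster had log2 fold changes from -0.99 to -0.72 in PANC-1, and the 6 of the first cluster from -0.59 to 0.23. This is a description of few genes of a class chosen after its values were seen, and the difference was not tested. In SW1990 the same genes ranged from -1.34 to -1.05 and from -1.59 to -0.99. HIST1H4K of the third cluster had 5791 and 2667 counts in SW1990 and 2579 and 1395 in PANC-1. HIST1H4A of the first cluster had 922 and 302 in SW1990 and 538 and 576 in PANC-1. Irradiated HIST1H4A was thus the lower library in SW1990 and not in PANC-1. HIST1H4K and HIST1H4A are named here after their values were seen, and HIST1H4K shares 100% of its 50-base windows with HIST1H4J of the same cluster.

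**Figure D3:**
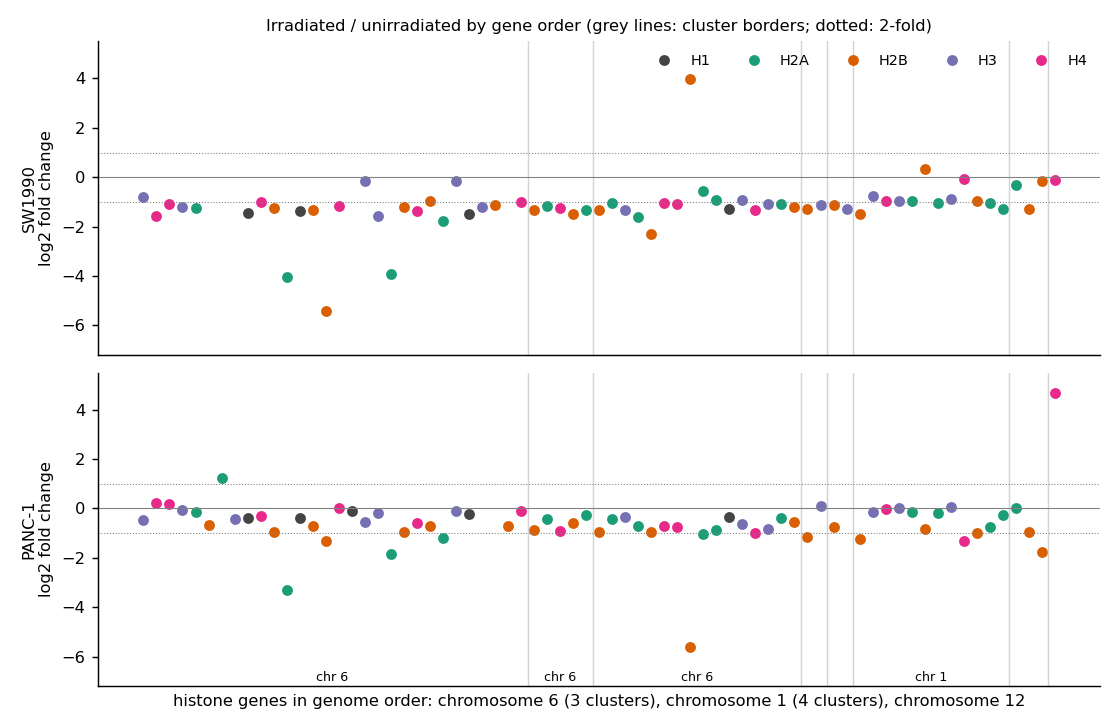
Log2 fold change (y axis) in SW1990 (upper panel) and PANC-1 (lower panel) for the histone genes in genome order (x axis), coloured by class, with cluster borders as grey lines and 2-fold change dotted. In SW1990 most genes of the chromosome 6 clusters lie near or below -1, while the chromosome 12 gene is at -0.12. In PANC-1 most genes lie between -1 and 0.

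On chromosome 1 some members are near-identical copies, between which the split of reads is uncertain. HIST2H4A had 3866 and 1975 counts in SW1990 and 3091 and 2750 in PANC-1, while HIST2H4B had 1745 and 1628 in SW1990 and 3490 and 1261 in PANC-1. Over 97% of the windows of each occur in the other. Their summed counts gave -0.62 (-0.68 to -0.56) in SW1990 and -0.58 (-0.64 to -0.52) in PANC-1, but their summed FPKM gave -0.95 and -0.13. The transcript length implied by the ratio of counts to FPKM varied 2.17-fold over the libraries for HIST2H4A and 1.88-fold for HIST2H4B. HIST2H3C, the H3 row with a large count on this chromosome, had 4062 and 2049 counts in SW1990 and 3587 and 3340 in PANC-1. Summed with its copy HIST2H3A it gave -0.93 (-0.98 to -0.87) in SW1990 and 0.05 (-0.00 to 0.10) in PANC-1.

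A few members departed from the rest of their class, and each is described with its annotation. HIST1H2BE had 1657 and 38 counts in SW1990 and 2156 and 794 in PANC-1, log2 fold changes of -5.41 (-5.93 to -4.96) and -1.31 (-1.43 to -1.19). By FPKM they were -6.81 and -2.99. The gene has annotated transcripts of 497 and 2585 bases. The transcript length implied by the ratio of counts to FPKM was 507 bases in both unirradiated libraries, 1284 in irradiated SW1990 and 1710.0 in irradiated PANC-1. The part of the transcript length in the fold change was not tested. For 57 of 67 members this implied length varied by at most 1.1 times over the libraries. However, 54 members have 1 annotated transcript, so their ratio had little room to vary. The 10 members over 1.1 times were all among the 16 with more than 1 transcript, so the change in HIST1H2BE was not exceptional among those.

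HIST1H2AD had 1747 and 113 counts in SW1990 and 435 and 111 in PANC-1, log2 fold changes of -3.92 (-4.22 to -3.65) and -1.83 (-2.15 to -1.53). A longer row, also named HIST1H3D, reads through HIST1H2AD and HIST1H3D on the same strand and holds 98.0% of the windows of HIST1H2AD. The counts of that row were 1210 and 1077 in SW1990 and 1702 and 1066 in PANC-1. Summed over HIST1H2AD and both rows named HIST1H3D, the log2 fold change was -1.45 (-1.52 to -1.39) in SW1990 and -0.41 (-0.48 to -0.35) in PANC-1. By summed FPKM it was -1.77 and -0.34. Most counts of the sum were those of the shorter HIST1H3D row, with 4821 and 1606 in SW1990 and 2691 and 2129 in PANC-1. The split of reads between these rows was not tested.

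HIST1H2BN was higher after radiation in SW1990 and lower in PANC-1. It had 64 and 1004 counts in unirradiated and irradiated SW1990 and 2250 and 41 in PANC-1. The log2 fold change was 3.98 (3.63 to 4.38) in SW1990 and -5.63 (-6.13 to -5.20) in PANC-1. Its model spans 28039 bases, overlaps HIST1H2AK and HIST1H2AL, and its 4 transcripts range from 432 to 4137 bases. The implied length was between 1624 and 1872 bases in the 4 libraries. HIST1H2AK, which lies inside its model on the opposite strand, had 488 and 323 counts in SW1990 and 575 and 257 in PANC-1.

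HIST4H4, the single member on chromosome 12 (chr12:14767999-14771131, minus strand), had 639 and 578 counts in SW1990 and 21 and 494 in PANC-1. Unirradiated PANC-1 was the low library of the 4. The log2 fold change was -0.12 (-0.29 to 0.04) in SW1990 and 4.66 (4.06 to 5.40) in PANC-1. The gene has 6 annotated transcripts of 372 to 1918 bases, and 3 of them run over 100 bases past the stem-loop. Its implied length was 519 to 668 bases in the 4 libraries.

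**Figure D4:**
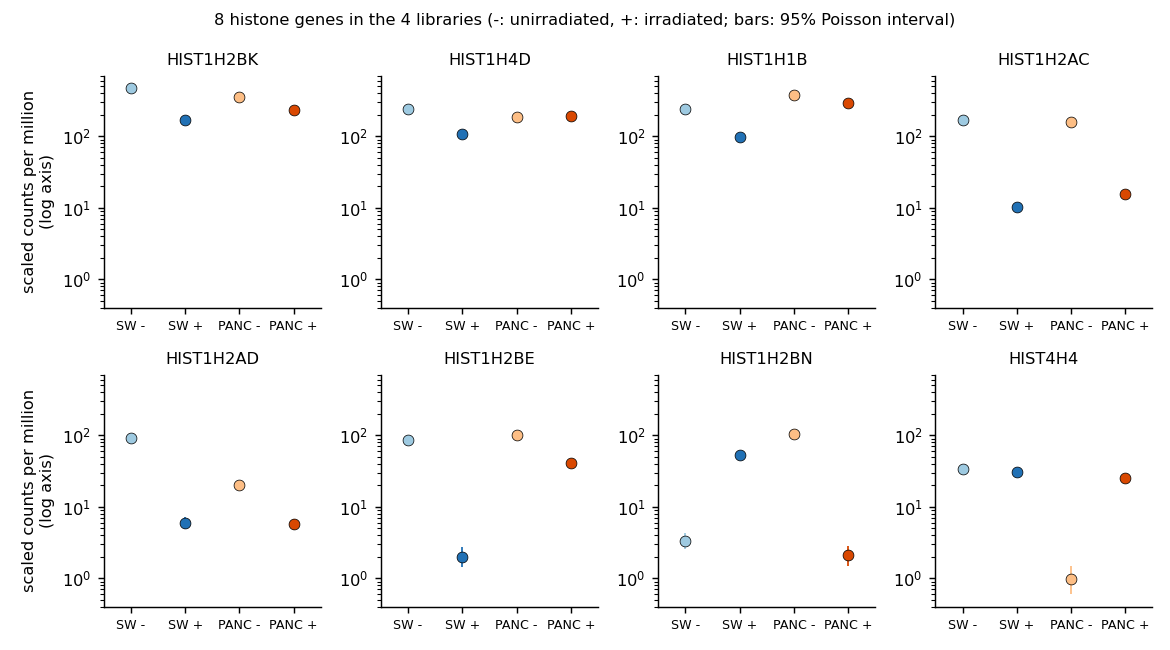
Scaled CPM, counts divided by library size (y axis, log scale), of 8 histone genes in the 4 libraries (x axis), 1 point per library with its 95% Poisson interval. HIST1H2BK, HIST1H4D and HIST1H1B vary by a few fold, HIST1H2AC, HIST1H2AD and HIST1H2BE are at 10.2, 5.97 and 2.01 in irradiated SW1990 and at 15.8, 5.67 and 40.6 in irradiated PANC-1, and HIST1H2BN and HIST4H4 are low in 2 and 1 of the 4 libraries.

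The members were also divided by their annotation. Of 43 members with a model of at most 1000 bases, 29 of the 39 with a fold change were lower by over 2-fold in SW1990 and 4 of 41 in PANC-1. Of 28 with a longer model, 17 of 27 were lower in SW1990 and 6 of 27 in PANC-1. Of all genes, 5.63% were lower by over 2-fold in SW1990 and 5.58% in PANC-1. The medians were -1.19 and -1.13 in SW1990 and -0.41 and -0.74 in PANC-1. Members in whose model a stem-loop was found had medians of -1.05 in SW1990 and -0.69 in PANC-1, and those without it -1.23 and -0.44. Members with over 50% of their windows in another member had medians of -1.07 and -0.39, and those with at most that share -1.22 and -0.60. The 27 members with no shared window, which are part of the latter, had medians of -1.22 and -0.33. Of them, 16 of 23 were lower by over 2-fold in SW1990 and 1 of 25 in PANC-1, the latter near the 5.58% of all genes. The medians in PANC-1 thus had no single order with the share of windows.

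The levels of the members were also compared between the cell lines. The effect of cell line in the fit of 4 libraries, a comparison added after the data were seen, passed an adjusted p of 0.05 in edgeR's quasi-likelihood test for 26 of 71 members. Of these, 14 were higher in PANC-1 and 12 in SW1990. The background was 8205 of 20017 genes (41%), so the members' share was near that of all genes. HIST1H3C had 0 counts in both SW1990 libraries and 4480 and 3072 in PANC-1, at least 2338-fold higher per scaled count against a floor of 3 counts over both libraries of the line. HIST1H2BB had 0 and 0 in SW1990 and 1479 and 856 in PANC-1, at least 723-fold higher. HIST1H2BB and HIST1H3C lie at chr6:26043277-26045821, and the pseudogene HIST1H2APS5 between them also had no count in SW1990. HIST1H2APS5 had only 9 and 20 counts in PANC-1 and reached 20 counts through them, so its 0 counts in SW1990 say little. The members that flank HIST1H2BB and HIST1H3C are HIST1H2AB and HIST1H1C, which had 1191 and 2716 counts in unirradiated SW1990.

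The opposite held for HIST1H3F, with 1881 and 805 counts in SW1990 and 0 and 0 in PANC-1, at least 964-fold higher in SW1990. The next member, HIST1H2BH, had 1156 and 526 counts in SW1990 and 0 and 1 in PANC-1. HIST1H2BI had 1 and 0 counts in SW1990 and 150 and 83 in PANC-1. No 50-base window of HIST1H3C, HIST1H2BB, HIST1H3F or HIST1H2BH occurs in another member. HIST1H4I had 1032 and 434 counts in SW1990 and 13 and 6 in PANC-1, and HIST2H3D had 1457 and 856 in SW1990 and 67 and 56 in PANC-1. Both had a quasi-likelihood adjusted p for cell line under the limit, at 0.000355 and 0.000517. The log2 difference between PANC-1 and SW1990 was -6.36 for HIST1H4I and -4.30 for HIST2H3D. HIST2H3D shares 80.4% of its windows with other members, most with the pseudogene HIST2H3DP1, which had 5 and 2 counts in SW1990 and 106 and 103 in PANC-1. The split of reads between them is uncertain. These genes were chosen after their values were seen.

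**Figure D5:**
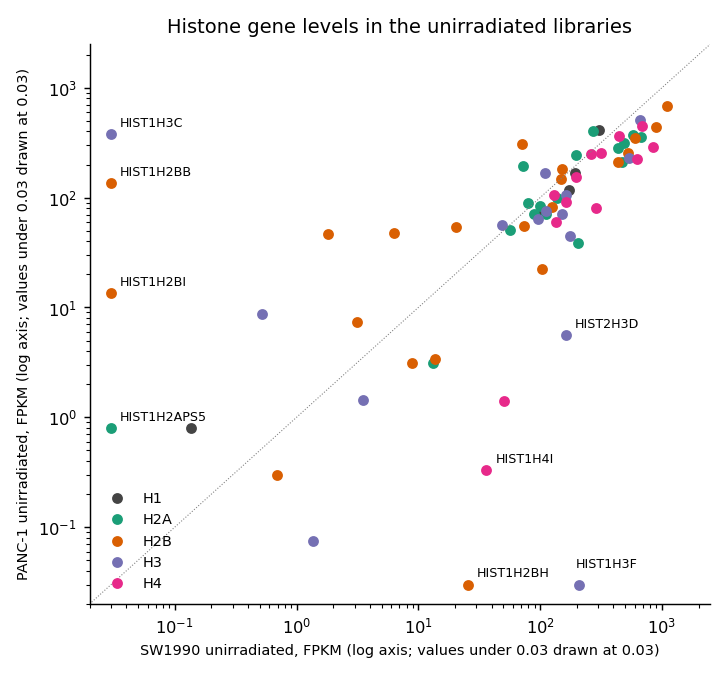
FPKM of the histone genes in unirradiated SW1990 (x axis) and unirradiated PANC-1 (y axis), on log axes with values under 0.03 drawn at 0.03. Most genes follow the dotted line of equal level, and HIST1H3C, HIST1H2BB, HIST1H2BI and HIST1H2APS5 lie at the left edge and HIST1H3F and HIST1H2BH at the lower edge.

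Genes that process, transcribe or degrade histone mRNA were mostly close to the median of all genes. The medians of 25 such genes were -0.04 in SW1990 and -0.12 in PANC-1. Of the 25, 1 was lower by over 2-fold in SW1990 and 0 in PANC-1, near the 5.63% and 5.58% of all genes. The 1 was ZNF473, a zinc finger protein of the U7 complex, with 877 and 318 counts in SW1990 and 819 and 668 in PANC-1. SLBP, named for its role, had 1474 and 1353 counts in SW1990 and 940 and 1060 in PANC-1, log2 fold changes of -0.10 (-0.21 to 0.01) and 0.31 (0.18 to 0.44). SRRT and UPF1, the members of the list with the most counts, had log2 fold changes of -0.04 and 0.05 in SW1990 and -0.04 and -0.09 in PANC-1. Of 23 replication genes expressed in S phase, 0 passed 2-fold in either line, with medians of -0.07 in SW1990 and 0.15 in PANC-1. By over 2-fold, 6.97% of all genes were higher in SW1990 and 8.02% in PANC-1. MCM4 and MCM7, subunits of the replicative helicase, were at -0.07 and -0.24 in SW1990 and at 0.22 and -0.05 in PANC-1.

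Histone chaperones and most of the variants made outside S phase did not pass 2-fold. None of 16 chaperone and assembly genes passed 2-fold, with medians of -0.12 in SW1990 and 0.12 in PANC-1. Of all genes, 5.63% were lower and 6.97% higher by over 2-fold in SW1990, and 5.58% and 8.02% in PANC-1. SSRP1 and SUPT16H, the subunits of the FACT complex, were at -0.12 and -0.13 in SW1990 and at -0.17 and -0.43 in PANC-1. Of 11 replication-independent variants, 0 were lower by over 2-fold and 1 was past 2-fold upward, H2AFY2 in PANC-1 with 9 and 17 counts and a log2 fold change of 1.01 (-0.19 to 2.40), an interval that holds 0. H2AFY and H2AFZ were at -0.14 and 0.11 in SW1990 and at 0.08 and 0.11 in PANC-1. The medians of the list were -0.20 and 0.08. The lowest variant in both lines was the linker histone H1F0, with 513 and 266 counts in SW1990 and 2386 and 1284 in PANC-1. It was at -0.92 (-1.15 to -0.71) in SW1990 and -0.76 (-0.86 to -0.66) in PANC-1, and H1FX and H2AFV were at -0.60 and -0.44 in SW1990 and at 0.02 and -0.08 in PANC-1. H1F0, H1FX and H2AFV were chosen after their values were seen.

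Histone mRNAs lack a poly(A) tail, so other RNAs without one were set beside them. None of 7 such RNAs passed 2-fold in either line, and the medians were 0.11 in SW1990 and -0.16 in PANC-1. RN7SL1, RN7SL2, RN7SK, RMRP and RPPH1 were taken from an earlier analysis of these data, so they are not an independent comparison. The others, RNU4ATAC and RNY1, had few counts, with 6 to 8 and 36 to 100 per library. Among all genes 5.63% were lower and 6.97% higher by over 2-fold in SW1990, and 5.58% and 8.02% in PANC-1. RN7SL1 and RN7SL2, the RNA of the signal recognition particle, were at 0.05 and -0.10 in SW1990 and at 0.14 and -0.16 in PANC-1. The labels call the libraries rRNA depleted but name an mRNA kit. How the libraries held RNA without a tail, and the part of the library type in the histone values, was not tested.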

How the data were processed

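RNA was sequenced from 1 library per group: SW1990 and PANC-1, unirradiated or irradiated. Per the labels, the authors extracted RNA with Trizol and used a VAHTS mRNA-seq V2 kit, while the sample records state rRNA depletion. The submitters' processing notes name CASAVA 1.8, FastQC 0.11.2, Trimmomatic 0.36, HISAT2 2.0, StringTie 1.3.3b, DESeq2 1.12.4 and GRCh38. The deposited table holds read counts per gene, not normalized, and the authors' FPKM values, which are scaled to transcript length and depth. The counting tool and its use of strand are not given in the sources used here, so reads of overlapping genes on opposite strands cannot be told apart.

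Total counts were 17939210 and 18388969 in unirradiated and irradiated SW1990 and 23451153 and 20154644 in PANC-1. Loci without a gene name held 0.487%, 0.453%, 0.545% and 0.635% of them in that order and were left out. There were 0 columns of other samples. A floor of 3 counts corresponds to 0.129 to 0.168 CPM.

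Counts were scaled by TMM (edgeR 4.0.16, R 4.3.3). Log2 fold changes used a prior count of 0.5, and 95% intervals were Clopper-Pearson (scipy 1.17.1, Python 3.11.15). Shares have Wilson intervals. All intervals cover counting error only. The effects of radiation and cell line were fitted on the genes with at least 20 counts by edgeR's quasi-likelihood test with Benjamini-Hochberg adjustment, and by DESeq2 1.42.0 as an alternative. These p-values measure only the spread between these 4 samples, which may be technical.

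Stem-loops, transcripts and shared 50-base windows came from GENCODE 29 and promoters from RefSeq. The implied transcript length is the ratio of counts to FPKM, calibrated in each library on 22 short members.

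Named histone genes were the 3 with the most counts in each class, the 3 with the largest decrease and 2 with the largest increase in each line, those past 2-fold in opposite directions and the one on chromosome 12. From other gene lists, the 2 genes with the most counts were named. Genes named outside this rule were chosen for their role or after their values were seen. They were EPCAM, CDH1, the other epithelial markers, markers of other cell types and the other RNAs without a poly(A) tail. They also were SLBP, ZNF473, H2AFY2, H2AFJ, H1F0, H1FX, H2AFV, HIST1H3E, HIST1H4A, HIST1H4I, HIST1H4K, HIST2H3D, HIST2H3DP1 and HIST2H3PS2. Also among them were the copies, the head-to-head pairs, the rows that overlap or flank a named gene and the genes at or near 0 in a line. The members and lists were chosen with earlier results of these data known, and part of the list of RNAs without a poly(A) tail was taken from an earlier analysis of these data. Alternatives were other scalings, filters, prior counts, fold limits and sets of members.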

Additional observations from a re-analysis of the deposited data

Results flagged for a closer look

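HIST1H2BN, an H2B gene, stood out because its libraries moved in opposite directions in the 2 lines. The log2 fold change after radiation was 3.98 in SW1990 and -5.63 in PANC-1, from counts of 64 and 1004 and of 2250 and 41. The difference between the lines was not tested, since each group had 1 library. Summed with HIST1H2AK and HIST1H2AL, which its model overlaps, the log2 fold change was 0.35 (95% counting interval 0.25 to 0.45) in SW1990 and -2.16 (-2.27 to -2.05) in PANC-1 by counts. By summed FPKM it was -0.47 and -1.27, so in SW1990 the direction of the sum differed between counts and FPKM.

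An assembled locus without a gene name, on the plus strand at chr6:26183745-26251943, spans 14 members of the first chromosome 6 cluster and lies outside the comparisons above. It had 18 counts in irradiated PANC-1 and 0 in the other 3 libraries. This difference was not tested.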

How the results depend on the processing

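Of 84 alternative values, 70 stayed within the limits set for a change, 14 moved and 0 reversed direction. The log2 fold change of the summed counts in SW1990, -1.18, became -1.24 with total counts, -1.26 with FPKM, -1.24 without pseudogenes and overlapping rows and -1.17 without the member with the most counts. That of PANC-1, -0.50, became -0.42 with total counts, -0.49 with DESeq2 size factors and -0.40 with FPKM. The members lower by over 2-fold in PANC-1, 10 of 68, became 4 of 47 without pseudogenes and overlapping rows and 34 with a fold limit of 1.5, which 12.1% of all genes passed. The PANC-1 median of -0.58 became -0.42 with no filter except 1 count. In SW1990 the count ranged from 36 of 46, without pseudogenes and overlapping rows, to 57 of 66 with a fold limit of 1.5, which 11.2% of all genes passed, and the median from -1.23 to -1.14. With copies and overlapping models summed, an alternative chosen after seeing the data, the count in PANC-1 was 7 of 60. For radiation in the fit of 4 libraries, edgeR's quasi-likelihood test called 0 members and 0 genes. DESeq2 called 27 members and 297 genes, and, on the genes kept by filterByExpr, also chosen after seeing the data, 14 members and 39 genes. The cause was not tested. The members with a difference between lines ranged from 21, with no filter except 1 count, where 20.2% of all genes passed, to 29 with DESeq2, where 48.2% passed. No paired analysis was possible by replicate number because each group had 1 library, and no replicate could be left out. The fit of 4 libraries pairs the libraries by cell line, and without that covariate it also called 0 members (10 at an unadjusted p under 0.05, as were 48 genes or 0.24%). Depth sets the counting intervals, and the spread between replicates is unknown.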

Other observations

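Among the variants made outside S phase, H2AFJ, an H2A variant, had 0 and 0 counts in unirradiated and irradiated SW1990 and 258 and 257 in PANC-1. H2AFJ was chosen after its values were seen.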
